A study of Mus musculus with 12 samples.

Results

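The genes described here build the proton pump of the lysosome, its membrane and a set of its digestive enzymes. The 34 members were listed by name from their textbook roles, with earlier results of these data known. All 34 were found among the 31075 genes of the deposited table and passed the filter on low counts. They comprise 15 genes of the pump (5 of its V0 sector, 8 of its V1 sector and 2 accessory subunits), 4 genes of the lysosomal membrane and 15 hydrolases and cofactors (6 cathepsins and other peptidases, 7 glycosidases and 2 genes of sphingolipid breakdown).

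They were measured as poly(A) RNA in primary fibrochondrocytes, the cells of the fibrous cartilage on the mandibular condyle, taken from mouse pups aged 10 to 14 days. The KO_Opti and KO_Norm cells were from mice in which Cspg4, the gene of the membrane proteoglycan NG2, was disrupted by a deletion allele tagged with a reporter (backcrossed to C57BL/6J), and the WT_Opti and WT_Norm cells were C57BL/6J wild type. Opti stands for Opti-MEM without serum, and Norm for AMEM with fetal bovine serum. Each of the 4 groups had 3 libraries, 12 in all, and the study asked how NG2/CSPG4 acts in these cells with and without serum. The basal medium changed together with the serum, so the effects of serum and of basal medium cannot be told apart.

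The lysosome is the acidic compartment in which cells digest what they take up and what autophagy delivers. Its proton pump, the V-ATPase, has a membrane sector (V0) that carries protons and a cytosolic sector (V1) that burns ATP to drive them, and the sectors can separate and rejoin. The acid that the pump makes is what activates cathepsins and glycosidases, which break down proteins and the sugar chains of proteoglycans and glycolipids. In cartilage these enzymes take part in the turnover of matrix that the cells have internalized. In mouse and human cells, transcription factors of the MiT/TFE family bind a short palindromic DNA element near many lysosomal genes, known as the CLEAR element, and raise their transcription when nutrients are scarce.

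The labels of the 6 knockout libraries contradict themselves, since their titles name one medium and their treatment entries the other. The groups follow the titles. Swapping the knockout media leaves WT_Opti against WT_Norm, and knockout against wild type averaged over media, as they are, and changes the other comparisons. RNA was from passage 4 by the labels, while the methods of the study describe use before the third passage. The labels do not say that the 3 libraries of a group came from separate animals, and the methods speak of 3 biological replicates, so p-values here measure the spread between libraries, which may be technical in part.

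Totals per library were between 51546504 and 71448484 counts, and 19118 genes were tested. Levels are given as CPM, the counts of a gene relative to its library's total after normalization, and a gene with an edgeR adjusted p under 0.05 was called. Cspg4 itself had 12.4, 10.5 and 13.0 CPM in KO_Opti and 16.6, 10.8 and 11.8 CPM in KO_Norm, against 147, 158 and 114 CPM in WT_Opti and 176, 216 and 201 CPM in WT_Norm, so no knockout library overlapped a wild type one. Fibroblast collagen genes were abundant in every library, and the cartilage markers Sox9, Acan and Col2a1 were above 0 in all 12. Their levels were not the same in all groups: of 12 chondrocyte and fibroblast markers, 7 were lower and 1 higher in WT_Opti than in WT_Norm, and 7 lower and 2 higher in KO_Norm than in WT_Norm. The largest of these changes was in Acan, the cartilage proteoglycan aggrecan, which had 18.3, 25.7 and 27.7 CPM in KO_Opti, 20.8, 8.93 and 13.7 in KO_Norm, 2.41, 1.48 and 1.20 in WT_Opti and 62.9, 69.2 and 62.7 in WT_Norm. Col2a1 and Lum were also lower in WT_Opti than in WT_Norm (-2.10 ± 0.14 and -2.20 ± 0.16 on the log2 scale, ± SE), and the part of these differences in the results below was not tested. Of 18 macrophage markers, 17 were above 0 in every library. Their summed level was 227 to 256 CPM in KO_Opti, 649.5 to 707 in KO_Norm, 743 to 1301 in WT_Opti and 639 to 781 in WT_Norm. In bulk RNA, fewer cells of a type and less RNA per cell cannot be told apart.

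Because MiT/TFE factors bind the E-box CACGTG and its extended form TCACGTGA, the RefSeq promoter windows (GRCm38.p6, 250 bases before to 50 after the start of each gene) were searched for both. A form of 10 bases, which extends TCACGTGA on both sides, was searched for as well. All are palindromes, so a match holds on both strands, and every TCACGTGA is also a CACGTG. A window was available for 28 of the 34 members. The stretches below are shown because they hold matches before the start of the gene in members of different roles and different responses, with the matches in capitals and the flanks in lower case, 5′ to 3′ along the strand of the gene.
Atp6v0b (chr4:117887334-117887385, minus strand): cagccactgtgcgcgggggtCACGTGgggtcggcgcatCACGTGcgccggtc
Lamp1 (chr8:13159080-13159160, plus strand): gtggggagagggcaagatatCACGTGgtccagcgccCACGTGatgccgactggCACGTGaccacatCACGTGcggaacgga
Mcoln1 (chr8:3500428-3500456, plus strand): ttagaaagggtcgcgcttgtCACGTGttc
Gla (chrX:134601173-134601253, minus strand): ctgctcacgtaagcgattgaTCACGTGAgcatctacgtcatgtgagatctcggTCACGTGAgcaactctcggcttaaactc
Gaa (chr11:119267803-119267848, plus strand): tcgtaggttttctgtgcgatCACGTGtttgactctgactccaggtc
Glb1 (chr9:114401010-114401055, plus strand): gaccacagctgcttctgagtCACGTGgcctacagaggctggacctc
Lamp1 had 4 copies of CACGTG within its window, the first 61 and the last 15 bases before the start. Gla had 2 copies of the longer TCACGTGA, 228 and 195 bases before the start. Atp6v0b had 2 copies of the short form, and Gaa and Glb1 had 1 each. Mcoln1 had 2 matches in its whole window, of which the one before both annotated starts is printed.

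Among the 28 members with a window, 13 (46.43%) held CACGTG, against 11.12% of the 12667 tested genes with a window. The longer TCACGTGA stood in 7 members (25.0%), against 1.95% of those genes. The form of 10 bases stood in 0 of the 28 members, against 0.68% of those genes. A match is a description of letters and no evidence of binding. Such elements are known near many lysosomal genes, so their share among members listed for lysosomal roles is no finding of these data. Of the 13 members with CACGTG, 11 were higher in WT_Opti than in WT_Norm, with a median log2 fold change of 0.81, and of the 15 without it 13 were higher, with a median of 0.75. The difference between these medians was not tested. The stretch of Glb1 holds a match and its RNA did not pass the test in that comparison. Gusb, called lower there, holds no match in its window. Neu1, Atp6ap2 and Tpp1 hold none either and were among the members with the smallest adjusted p in their roles. Atp6v0d1 and Mcoln1 hold both CACGTG and TCACGTGA and had the smallest adjusted p of the V0 and membrane genes there. A relation between matches and these changes was not tested.

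In wild type cells nearly the whole set was more abundant without serum. Of the 34 members, 30 were higher in WT_Opti than in WT_Norm (20.3% of all genes tested were called higher), 1 was lower (19.6% of all genes) and 3 did not pass, where 39.8% of all genes were called in either direction. The median log2 fold change over the members was 0.80, beside -0.01 over all genes tested. All 3 WT_Opti libraries exceeded all 3 WT_Norm libraries for 31 members (26.8% of all genes), and the reverse held for 2 (24.5%). The largest changes were in Atp6v1g1, Atp6ap2, Atp6v1b2 and Neu1, with log2 fold changes of 1.65, 1.49, 1.48 and 1.42.

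**Figure D1:**
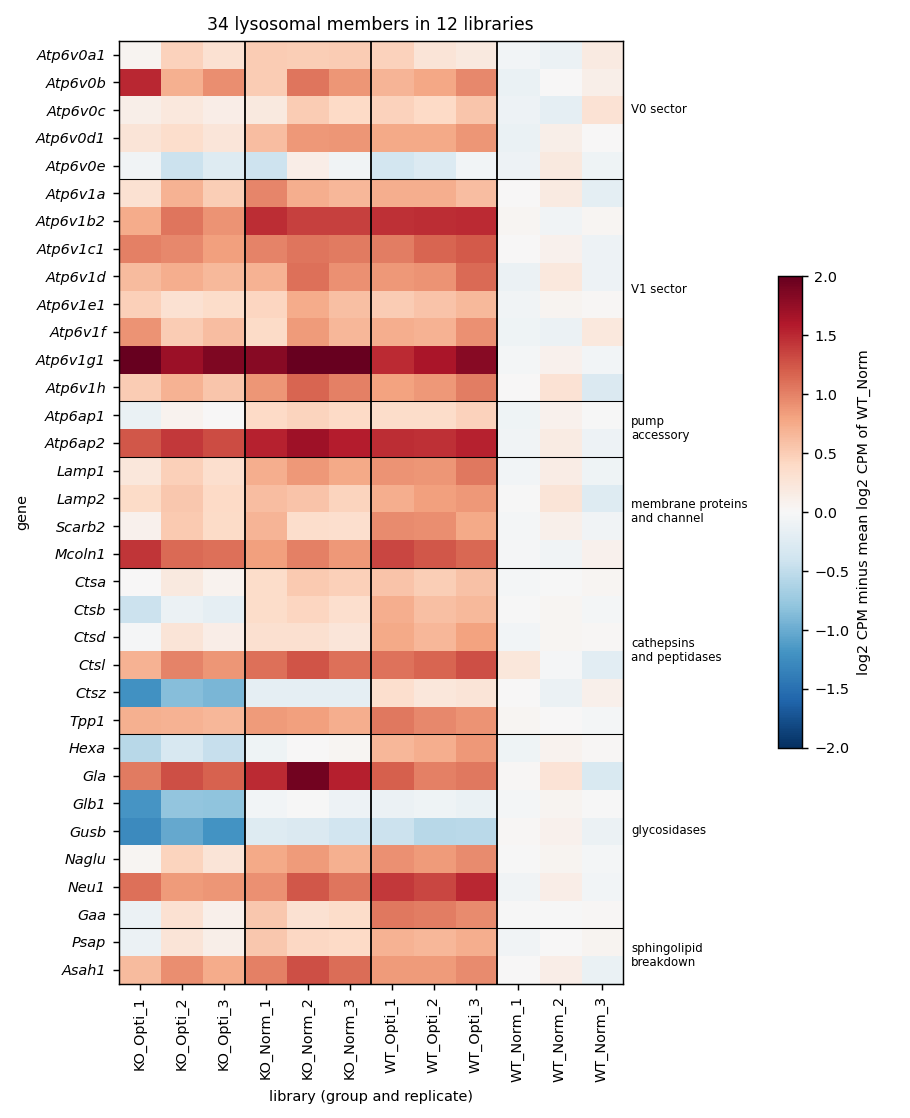
Heat map of the 34 members (rows, by role) in the 12 libraries (columns), as log2 CPM minus the mean log2 CPM of the WT_Norm libraries, with colours ending at -2 and 2. The WT_Opti and KO_Norm columns are red for nearly all members, whereas in KO_Opti the V1 genes are red and Ctsz, Hexa, Glb1 and Gusb are blue.

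The knockout differed from wild type in opposite ways in the 2 media. In Norm medium, 29 members were higher in KO_Norm than in WT_Norm (18.9% of all genes were called higher), 1 was lower (17.2%) and 4 did not pass, with a median log2 fold change of 0.71 and 36.1% of all genes called in either direction. The libraries did not overlap for 28 members that were higher (23.3% of all genes) and 2 that were lower (22.0%). This comparison and that of WT_Opti against WT_Norm share the WT_Norm libraries, so their counts are not independent. In Opti medium, none was higher in KO_Opti than in WT_Opti (13.3% of all genes), 18 were lower (14.9%) and 16 did not pass, with a median of -0.34. All KO_Opti libraries lay below all WT_Opti libraries for 25 members (24.4% of all genes) and above them for none (23.0%). No member was higher in that comparison at an unadjusted p under 0.05 in edgeR either, and DESeq2 called none higher after adjustment and 1 before it. The comparisons of genotype in Norm and in Opti medium share no library. Of the members, 14 were called higher in the first and lower in the second (3.55% of all genes were), while none was called the other way round (2.53%). Under the treatment entry of the labels the counts were 20 higher and 4 lower in Norm medium, and 1 higher and 7 lower in Opti medium. Of the 19118 genes tested, that reading called 4072 higher and 3872 lower in Norm medium, and 2405 higher and 2109 lower in Opti medium.

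Within the knockout, 16 members were lower in KO_Opti than in KO_Norm (11.0% of all genes were called lower), 1 was higher (8.39%) and 17 did not pass, with a median log2 fold change of -0.29. The libraries did not overlap for 19 members that were lower (20.7% of all genes) and 1 that was higher (17.9%). The 16 became 10 without KO_Opti replicate 3 and 10 without KO_Norm replicate 2, 8 with Y-linked expression as a covariate, and 7 and 6 with limma on log2(FPKM + 1) and log2(FPKM + 0.1), where the median was -0.16. Lower calls over all genes fell too, from 2105 to 1266, 1309, 1060, 870 and 897 in these settings in the same order. On log2(FPKM + 1) the balance over all genes turned, with 70.98% of called genes higher in KO_Opti, against 43.25% on counts. The test of the difference itself, the medium effect in knockout minus that in wild type, was lower for 31 members (17.0% of all genes) and higher for none (14.4%), also at an unadjusted p under 0.05 in edgeR and DESeq2, with a median of -1.08. By the treatment entry that test called 19 lower and 3 higher, beside 3342 lower and 3293 higher of all 19118 genes. The medium effect in the knockout changed sign under that entry.

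Averaged over both media, the calls between genotypes fell in different directions for the pump and the hydrolases, a difference between lists that was not tested. Of the 34 members, 17 were higher in knockout than in wild type (18.0% of all genes were called higher), 6 were lower (16.0%) and 11 did not pass. The pump carried most of the higher calls: 11 of its 15 genes were higher and none lower, with a median log2 fold change of 0.30. Among the 15 hydrolases and cofactors, 5 were higher, 6 lower and 4 did not pass, with a median of -0.07. These averages hide a split by medium. In KO_Norm against WT_Norm, 14 pump genes were higher and 0 lower (median 0.79), and 11 hydrolases and cofactors higher and 1 lower (median 0.45). In KO_Opti against WT_Opti, 0 pump genes were higher and 3 lower (median -0.19), and 0 hydrolases and cofactors higher and 12 lower (median -0.61). All 6 knockout libraries exceeded all 6 wild type libraries for no member (3.47% of all genes), and the reverse held for 1, Ctsz (4.49%). The summed level of 4 Y-linked genes was 73.5 to 82.1 CPM in KO_Opti and 113 to 129 in KO_Norm, against 52.1 to 58.8 in WT_Opti and 37.5 to 66.1 in WT_Norm, so Y-linked expression moved with genotype. Y-linked expression also differed between the knockout groups, with 3 of the 4 genes lower in KO_Opti than in KO_Norm (11.0% of all genes) and a median of -0.66. With that expression as a covariate no member was called in either direction over both media, with 7 higher and 3 lower at an unadjusted p under 0.05, while the member median stayed at 0.17. Calls over all genes fell as well, to 264 higher and 431 lower with the covariate, against 3437 and 3054 without it. In KO_Norm against WT_Norm the covariate left 3 members called higher, 18 at an unadjusted p under 0.05, and a member median of 0.69 against 0.71 without it, and calls over all genes were 352 higher and 414 lower, against 3615 and 3281. The parts of Y-linked expression and of genotype in these differences cannot be told apart.

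**Figure D2:**
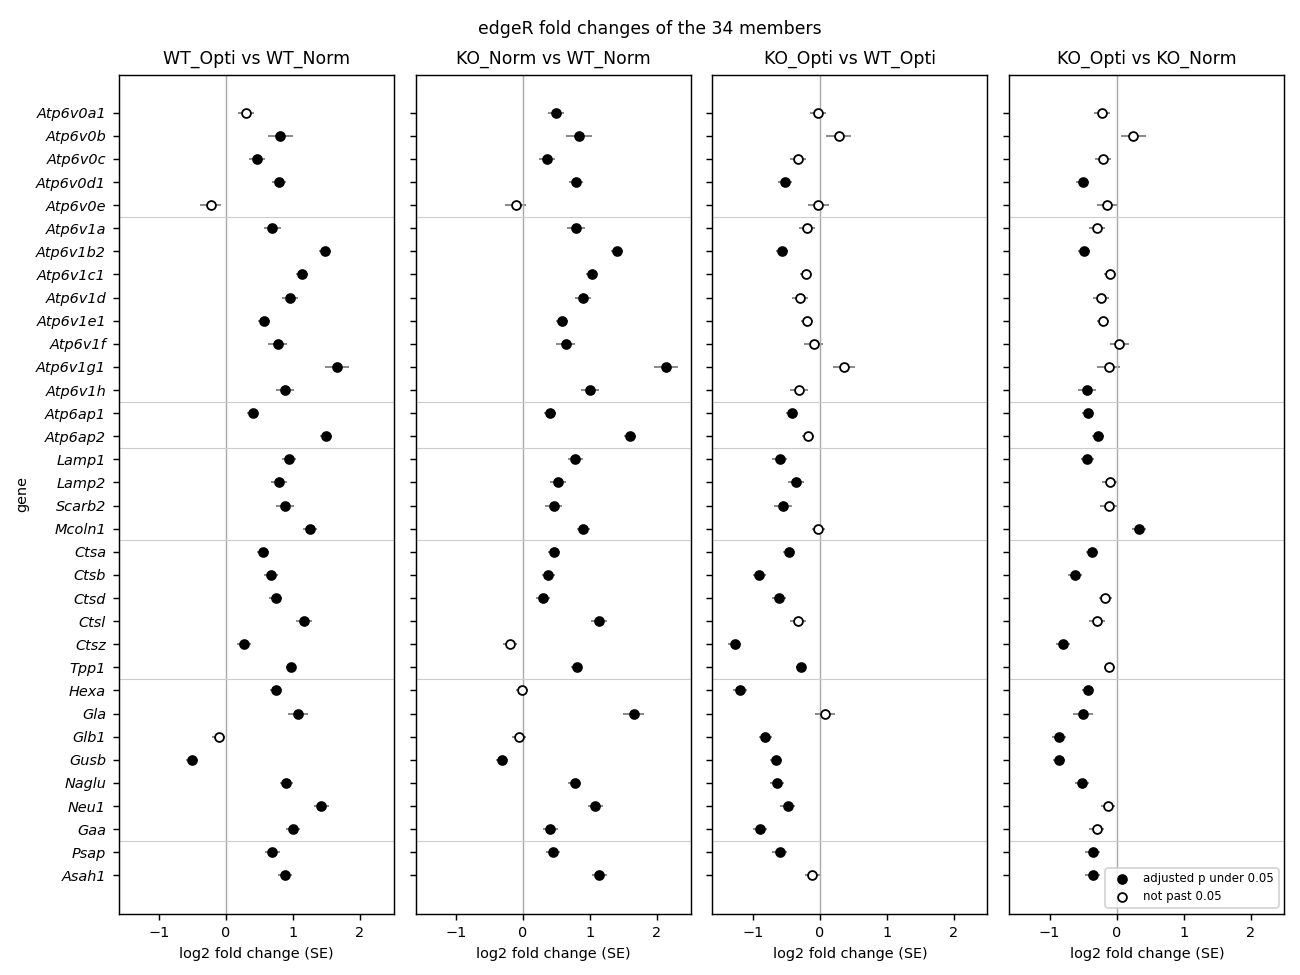
Log2 fold changes of the 34 members with their standard errors (bars) in 4 comparisons from the edgeR fit of all 12 libraries, filled where the adjusted p was under 0.05. The points lie right of 0 for 30 filled members in WT_Opti against WT_Norm and for 29 in KO_Norm against WT_Norm, and left of 0 for all 18 filled members in KO_Opti against WT_Opti.

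Ordered by group mean, WT_Norm was lowest for 27 of the 34 members (31.4% of all genes) and WT_Opti highest for 21 (25.0%). Both held at once for 18 members (12.5%). KO_Norm had the highest mean for 9 members (18.0%), WT_Norm for 3 (32.4%) and KO_Opti for 1 (24.7%), and KO_Opti had the lowest mean for 7 (22.4%).

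The V0 sector forms the rotating proteolipid ring and its housing in the membrane. Of its 5 genes, 3 were higher in WT_Opti than in WT_Norm, with log2 fold changes of all 5 between -0.23 and 0.81. Atp6v0d1, which encodes the d subunit that joins the ring to the V1 stalk, had 162, 172 and 161 CPM in KO_Opti, 207, 249 and 249 in KO_Norm, 229, 229 and 249 in WT_Opti and 124, 147 and 137 in WT_Norm. KO_Norm and WT_Opti overlapped, and both lay above KO_Opti, which lay above WT_Norm. It gave a log2 fold change of 0.79 ± 0.10 (± SE here and below, with adjusted p = 3.22e-05) in WT_Opti against WT_Norm, 0.79 in KO_Norm against WT_Norm and -0.52 in KO_Opti against WT_Opti.

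Atp6v0b and Atp6v0c encode proteolipids of the ring. For Atp6v0b the libraries had 206, 118 and 137 CPM in KO_Opti, 103, 151 and 133 in KO_Norm, 116, 123 and 141 in WT_Opti and 66.0, 72.4 and 78.1 in WT_Norm. The first KO_Opti library stood above all others, and every library outside WT_Norm exceeded those within it. Its log2 fold change was 0.81 ± 0.19 (adjusted p = 0.00432) in WT_Opti against WT_Norm and 0.56 ± 0.13 (adjusted p = 0.00616) in knockout against wild type over both media. Atp6v0c had 227, 243 and 230.3 CPM in KO_Opti, 239, 296 and 275 in KO_Norm, 288, 276 and 307 in WT_Opti and 194, 184 and 255 in WT_Norm, and the third WT_Norm library reached into the range of the knockout groups. It was higher in WT_Opti than in WT_Norm (0.46 ± 0.12, adjusted p = 0.00994). Atp6v0c has 2 named pseudogenes with which it can share reads, so its level is uncertain. Atp6v0a1 and Atp6v0e, an a subunit and the small e subunit, did not pass in wild type cells, with 0.30 ± 0.12 and -0.23 ± 0.15.

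The V1 sector holds the ATP-burning head and the stalks that connect it to the membrane. All 8 of its genes were higher in WT_Opti than in WT_Norm, with log2 fold changes between 0.57 and 1.65, and all 8 were higher in KO_Norm than in WT_Norm, between 0.59 and 2.13. Both counts rest on the same WT_Norm libraries. Of the 8, Atp6v1b2 alone was called lower in KO_Opti than in WT_Opti, and over both media all 8 were higher in knockout than in wild type, between 0.20 and 1.25. In that last comparison the calls for Atp6v1e1 and Atp6v1f were each lost without any one of 8 of the 12 libraries, and that for Atp6v1a without KO_Opti replicate 2.

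Atp6v1g1, a peripheral stalk subunit, had the largest log2 fold change of the 34 members in both WT_Opti against WT_Norm and KO_Norm against WT_Norm. Both comparisons share the WT_Norm libraries. For Atp6v1g1 the libraries had 304, 193 and 214 CPM in KO_Opti, 208, 309.5 and 253 in KO_Norm, 165, 181 and 206 in WT_Opti and 57.3, 62.0 and 56.7 in WT_Norm. WT_Norm lay far below the other 3 groups, and every KO_Norm library exceeded every WT_Opti library. The log2 fold change was 1.65 ± 0.18 in WT_Opti against WT_Norm (adjusted p = 9.84e-06) and 2.13 ± 0.18 in KO_Norm against WT_Norm (adjusted p = 2.13e-06), whereas KO_Opti against WT_Opti gave 0.36 ± 0.17 (adjusted p = 0.138) with one KO_Opti library inside the WT_Opti range.

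Atp6v1b2, the B subunit that alternates with the catalytic A subunit in the head, had 123, 155 and 137 CPM in KO_Opti, 205, 189.5 and 189 in KO_Norm, 203, 205 and 207 in WT_Opti and 75.7, 70.2 and 75.4 in WT_Norm. The WT_Opti values were nearly identical and the WT_Norm values lay far below, with KO_Norm overlapping WT_Opti and KO_Opti between. WT_Opti exceeded WT_Norm by 1.48 ± 0.09 on the log2 scale (adjusted p = 1.27e-07), and KO_Opti was below WT_Opti (-0.57 ± 0.09, adjusted p = 0.000495). Atp6v1c1, whose product links head and peripheral stalk and is released when the pump comes apart, had 83.0, 79.7 and 72.9 CPM in KO_Opti, 81.7, 86.6 and 84.2 in KO_Norm, 83.9, 92.5 and 95.9 in WT_Opti and 41.3, 43.8 and 38.3 in WT_Norm. Its WT_Norm libraries were again apart from the other 9, and the log2 fold change in wild type cells was 1.14 ± 0.09 (adjusted p = 6.25e-07). The A, D, E, F and H subunit genes (Atp6v1a, Atp6v1d, Atp6v1e1, Atp6v1f and Atp6v1h) had 0.69, 0.96, 0.57, 0.77 and 0.88 in the same comparison.

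Both accessory subunits, which help the V0 sector assemble, were higher without serum in wild type cells. Atp6ap2, also known as the prorenin receptor, had 147, 165 and 154 CPM in KO_Opti, 181, 201 and 184 in KO_Norm, 172, 171 and 182 in WT_Opti and 59.5, 69.6 and 58.2 in WT_Norm. The 9 libraries outside WT_Norm all lay far above those within it. Log2 fold changes were 1.49 ± 0.09 (adjusted p = 1.21e-07) in WT_Opti against WT_Norm and 0.71 ± 0.06 (adjusted p = 4e-06) in knockout against wild type over both media. The genotypes differed by 1.60 in Norm medium, which was called, and by -0.17 in Opti medium, which was not. Atp6ap1 had 286, 330.2 and 315 CPM in KO_Opti, 415, 429 and 413 in KO_Norm, 408, 407 and 434 in WT_Opti and 297, 334 and 313 in WT_Norm. KO_Norm and WT_Opti were high and KO_Opti and WT_Norm low, with 0.40 ± 0.09 in WT_Opti against WT_Norm (adjusted p = 0.00231) and -0.01 ± 0.06 over both media (adjusted p = 0.956).

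**Figure D3:**
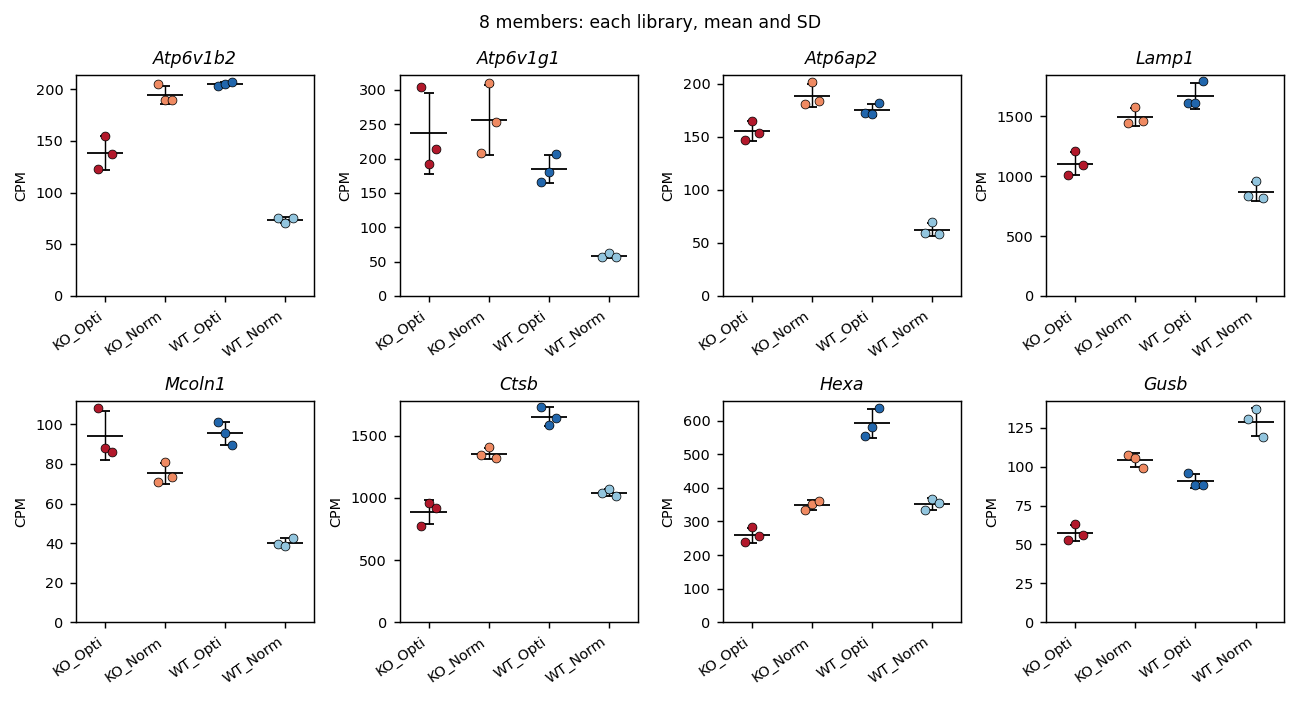
CPM of 8 members in each library (points), with the group mean and SD (lines), on axes that start at 0. Atp6v1b2, Atp6v1g1 and Atp6ap2 are lowest in WT_Norm, Ctsb and Hexa are highest in WT_Opti and lowest in KO_Opti, and Gusb is highest in WT_Norm.

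All 4 membrane genes were higher in WT_Opti than in WT_Norm. Mcoln1 encodes a calcium channel of the lysosomal membrane, and its libraries had 108, 88.2 and 86.3 CPM in KO_Opti, 70.9, 81.2 and 73.6 in KO_Norm, 101, 95.6 and 89.4 in WT_Opti and 39.6, 38.5 and 42.7 in WT_Norm. KO_Opti and WT_Opti overlapped and both exceeded KO_Norm, which exceeded WT_Norm. The log2 fold change in wild type cells was 1.25 ± 0.10 (adjusted p = 1.21e-06). Mcoln1 was the member called higher in KO_Opti than in KO_Norm (0.33 ± 0.10, adjusted p = 0.0406), a call lost without any one of 8 of the 12 libraries.

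Lamp1 encodes a heavily glycosylated protein that coats the inside of the lysosomal membrane, and it had 1013, 1208 and 1091 CPM in KO_Opti, 1441, 1578 and 1463 in KO_Norm, 1609, 1606 and 1797 in WT_Opti and 835, 961 and 814 in WT_Norm. Its WT_Opti libraries lay above all others, followed by KO_Norm, KO_Opti and WT_Norm with no overlap between neighbours. It was higher by 0.94 ± 0.11 in WT_Opti against WT_Norm (adjusted p = 1.54e-05) and lower in KO_Opti than in WT_Opti (-0.60 ± 0.11, adjusted p = 0.00101). Scarb2, which carries glucocerebrosidase to the lysosome, had 118, 159.5 and 145 CPM in KO_Opti, 178, 142 and 140.0 in KO_Norm, 215, 213 and 189 in WT_Opti and 108, 119.8 and 107 in WT_Norm, with the knockout groups overlapping each other below WT_Opti and 1 KO_Opti library within the WT_Norm range. Its log2 fold change in wild type cells was 0.88 ± 0.13 (adjusted p = 0.000116). Lamp2, a receptor of chaperone-mediated autophagy in one of its forms, had 0.79 in wild type cells and -0.36 in KO_Opti against WT_Opti.

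The 6 cathepsins and peptidases were all higher in WT_Opti than in WT_Norm, and 5 were lower in KO_Opti than in WT_Opti. Tpp1, which removes tripeptides from the ends of proteins, had 217, 215 and 211 CPM in KO_Opti, 239.9, 234 and 219 in KO_Norm, 275, 259 and 248 in WT_Opti and 136, 133 and 129.6 in WT_Norm. The WT_Norm libraries stood well below the other 9. Tpp1 gave 0.97 ± 0.08 in WT_Opti against WT_Norm (adjusted p = 7.94e-07) and 0.26 ± 0.05 in knockout against wild type over both media (adjusted p = 0.00262). That average joins calls in opposite directions, 0.80 in Norm medium and -0.28 in Opti medium. Ctsl, a cysteine protease, had 488, 598 and 555 CPM in KO_Opti, 643, 721 and 641 in KO_Norm, 639.6, 673 and 736 in WT_Opti and 352, 295 and 261 in WT_Norm. KO_Norm and WT_Opti overlapped above KO_Opti, and WT_Norm was lowest. It gave 1.17 ± 0.12 (adjusted p = 8.45e-06) in wild type cells and 0.41 ± 0.09 (adjusted p = 0.00265) over both media. By medium, knockout against wild type gave 1.14 in Norm, which was called, and -0.32 in Opti, which was not. Ctsl shares its strand with Gm49230 and Ctsd with Gm49369, so reads of these pairs may be split between them.

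Ctsz and Ctsb were lower in knockout than in wild type over both media. Ctsz, a carboxypeptidase, had 122, 157 and 150.2 CPM in KO_Opti, 249.7, 249.7 and 249.8 in KO_Norm, 359, 332 and 340.1 in WT_Opti and 285, 263 and 306 in WT_Norm. All KO_Opti values lay below all others, and KO_Norm lay below both wild type groups. The log2 fold change over both media was -0.73 ± 0.07 (adjusted p = 7.76e-06), made of -1.27 ± 0.10 in Opti medium (adjusted p = 2.42e-06) and -0.19 ± 0.10 in Norm medium (adjusted p = 0.169). Its rise in WT_Opti over WT_Norm was small (0.27 ± 0.10, adjusted p = 0.0453) and was lost without any one of 8 of the 12 libraries.

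Ctsb, a cysteine protease with endo- and exopeptidase activity, had 777, 959 and 919 CPM in KO_Opti, 1344, 1409 and 1318 in KO_Norm, 1734, 1586 and 1641 in WT_Opti and 1038, 1070.4 and 1019.5 in WT_Norm. WT_Opti was highest, then KO_Norm, WT_Norm and KO_Opti, each apart from the next. It was lower in KO_Opti than in WT_Opti (-0.90 ± 0.10, adjusted p = 2.65e-05) and higher in KO_Norm than in WT_Norm (0.38 ± 0.10, adjusted p = 0.0092), which left -0.26 ± 0.07 over both media (adjusted p = 0.0111). Ctsd, an aspartic protease, and Ctsa, a carboxypeptidase that stabilizes beta-galactosidase and neuraminidase, had 0.74 and 0.55 in wild type cells and -0.61 and -0.46 in KO_Opti against WT_Opti.

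The 7 glycosidases were mixed, with 5 higher, 1 lower and 1 not called in WT_Opti against WT_Norm, and 2 higher and 4 lower in knockout against wild type over both media. Neu1, the lysosomal sialidase, had 52.7, 44.7 and 45.3 CPM in KO_Opti, 46.3, 58.6 and 51.7 in KO_Norm, 65.7, 62.5 and 70.4 in WT_Opti and 23.5, 27.0 and 23.6 in WT_Norm. WT_Opti was highest, the knockout groups overlapped between, and WT_Norm was lowest in every library. It rose by 1.42 ± 0.11 on the log2 scale in WT_Opti against WT_Norm (adjusted p = 6.84e-07) and was lower in KO_Opti than in WT_Opti (-0.48 ± 0.11, adjusted p = 0.00516).

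Naglu, which cleaves heparan sulfate, had 40.9, 54.4 and 47.4 CPM in KO_Opti, 67.1, 71.8 and 65.0 in KO_Norm, 74.9, 71.6 and 76.4 in WT_Opti and 39.5, 41.2 and 38.8 in WT_Norm. Gaa, which digests glycogen, had 397, 534 and 464 CPM in KO_Opti, 627, 532 and 554 in KO_Norm, 890.1, 872 and 828 in WT_Opti and 427, 428 and 437 in WT_Norm. For both, the ranges of KO_Opti and WT_Norm overlapped and WT_Opti had the highest mean, and WT_Opti exceeded WT_Norm by 0.90 ± 0.10 (adjusted p = 1.36e-05) and 1.0 ± 0.11 (adjusted p = 1.37e-05) on the log2 scale. Gla, the alpha-galactosidase of globotriaosylceramide, had 23.1, 27.3 and 25.3 CPM in KO_Opti, 31.4, 42.5 and 32.8 in KO_Norm, 25.7, 22.4 and 23.3 in WT_Opti and 11.3, 13.6 and 9.08 in WT_Norm. It was highest in KO_Norm and lowest in WT_Norm, with 1.07 ± 0.15 in wild type cells (adjusted p = 0.000121) and 0.87 ± 0.11 over both media (adjusted p = 5.61e-05).

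Gusb, the beta-glucuronidase that trims glycosaminoglycan chains, was the one member called lower in WT_Opti than in WT_Norm. Its libraries had 53.0, 63.1 and 56.3 CPM in KO_Opti, 108, 105 and 99.1 in KO_Norm, 96.0, 87.9 and 88.2 in WT_Opti and 130.4, 137 and 119 in WT_Norm. WT_Norm was highest and KO_Opti lowest with no overlap, so the gene was lower in WT_Opti than in WT_Norm (-0.51 ± 0.09, adjusted p = 0.000574), lower in KO_Norm than in WT_Norm (-0.31 ± 0.09, adjusted p = 0.0164) and lower over both media in knockout (-0.48 ± 0.06, adjusted p = 7.86e-05). The call in Norm medium was lost without KO_Norm replicate 3 or WT_Norm replicate 2.

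Hexa, which splits the ganglioside GM2, was chosen after its values were seen. Its libraries had 238, 283 and 256 CPM in KO_Opti, 333, 353 and 362 in KO_Norm, 555, 581 and 639 in WT_Opti and 333, 368 and 356 in WT_Norm. WT_Opti alone was raised, KO_Norm and WT_Norm overlapped, and KO_Opti was lowest. KO_Opti was below WT_Opti (-1.19 ± 0.10, adjusted p = 2.22e-06), while KO_Norm against WT_Norm gave -0.01 ± 0.09 (adjusted p = 0.941). Glb1, beta-galactosidase, did not pass in wild type cells (-0.11 ± 0.10) and was lower in KO_Opti than in WT_Opti (-0.81 ± 0.10, adjusted p = 6.43e-05). It lies on the same strand as Tmppe and may share reads with it.

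Psap and Asah1 serve sphingolipid breakdown: Psap is cut into the saposins, helpers of lipid hydrolases, and Asah1 is acid ceramidase. Psap had 1356, 1768 and 1596 CPM in KO_Opti, 2146, 1978 and 1946 in KO_Norm, 2382, 2328 and 2456 in WT_Opti and 1413, 1486 and 1536 in WT_Norm. WT_Opti was highest and KO_Norm next, while the ranges of KO_Opti and WT_Norm overlapped. Asah1 had 257, 317 and 278 CPM in KO_Opti, 334, 403 and 358 in KO_Norm, 297, 299 and 319 in WT_Opti and 166, 182 and 151 in WT_Norm. KO_Norm was highest and WT_Norm lowest, and KO_Opti overlapped WT_Opti. In WT_Opti against WT_Norm they gave 0.69 ± 0.11 (adjusted p = 0.000222) and 0.88 ± 0.11 (adjusted p = 3.37e-05), and over both media -0.07 ± 0.08 (adjusted p = 0.487) and 0.52 ± 0.08 (adjusted p = 0.000214). By medium, knockout against wild type gave 0.45 in Norm and -0.60 in Opti for Psap, both called. For Asah1 it gave 1.14 in Norm, which was called, and -0.11 in Opti, which was not.

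Summed over genes, the pump and the hydrolases ordered the groups differently. The 15 pump genes together had 2168 to 2277 CPM in KO_Opti, 2496 to 2865 in KO_Norm, 2506 to 2706 in WT_Opti and 1475 to 1615 in WT_Norm. WT_Norm was lowest and KO_Opti next, each apart from the rest, and KO_Norm and WT_Opti overlapped. The 15 hydrolases and cofactors together had 7002 to 8603 CPM in KO_Opti, 9584 to 10045 in KO_Norm, 11886 to 12641 in WT_Opti and 7304 to 7591 in WT_Norm. Here the range of KO_Opti enclosed that of WT_Norm, and WT_Opti was highest.

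Macrophages and osteoclasts are rich in lysosomes, and their markers moved with part of these values. Of 18 macrophage markers, 17 were lower in KO_Opti than in WT_Opti and none higher, as were 16 in KO_Opti than in KO_Norm and 16 in knockout than in wild type over both media. Between KO_Norm and WT_Norm few were called: 1 was higher in KO_Norm, 2 were lower and 15 did not pass. In the test of the difference in medium effect between genotypes, 13 were lower and none higher, with a median of -1.83. In WT_Opti against WT_Norm 3 were higher, 1 was lower and 14 did not pass. The 3 were Cd68 (1.19), Lyz2 (0.74) and Tyrobp (0.73). Csf1r, the growth factor receptor of the lineage, named here after its values were seen, was the lower one and had 8.59, 11.4 and 9.90 CPM in KO_Opti, 28.3, 27.5 and 28.0 in KO_Norm, 27.7, 14.7 and 14.6 in WT_Opti and 48.2, 32.3 and 40.9 in WT_Norm, with -1.09 ± 0.23 in WT_Opti against WT_Norm (adjusted p = 0.00196). The first WT_Opti library had the highest marker sum, 1301 CPM. Without it, 29 members were called higher in WT_Opti than in WT_Norm and 16 lower in KO_Opti than in WT_Opti. Of the 19883 genes tested then, 3309 and 2300 were called in these directions. The other WT_Opti libraries had marker sums of 743 and 872 CPM, still above the 227 to 256 CPM of KO_Opti. Leaving out this library therefore does not test the part of the markers. The summed level of 9 osteoclast markers was 488.5 to 533.5 CPM in KO_Opti, 652 to 734 in KO_Norm, 639 to 775 in WT_Opti and 777 to 1031 in WT_Norm, and the osteoclast fusion gene Dcstamp was at 0 in 9 libraries. Ctsk made up most of that sum, on average 391 of 510 CPM in KO_Opti and 740 of 866 in WT_Norm. Lyz2 made up most of the macrophage sum, on average 657 of 972 CPM in WT_Opti. The marker lists are not free of lysosomal genes: Acp5 and Ctsk also stand among the other lysosomal hydrolases below, and Atp6v0d2 among the pump isoforms. Of 8 osteoclast markers tested, 4 were lower in KO_Opti than in WT_Opti and 3 lower in KO_Opti than in KO_Norm, with none higher in either. The part of both marker lists in the lower hydrolase levels of KO_Opti was not tested.

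**Figure D4:**
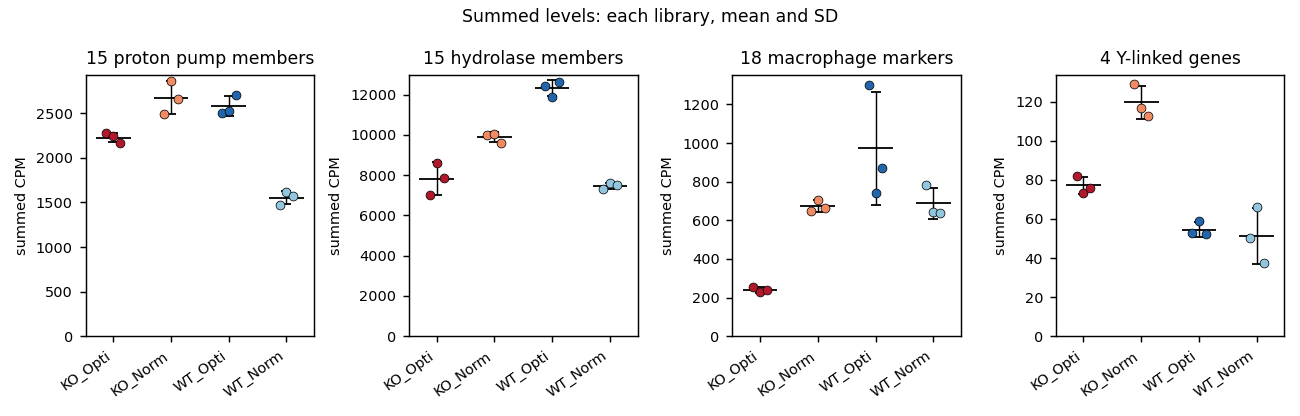
Summed CPM of the 15 pump genes, the 15 hydrolases and cofactors, 18 macrophage markers and 4 Y-linked genes in each library (points), with the group mean and SD (lines), on axes that start at 0. WT_Norm is lowest for the pump, KO_Opti and WT_Norm are both low for the hydrolases, KO_Opti is lowest for the macrophage markers, and both knockout groups are above both wild type groups for the Y-linked genes.

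Levels of different genes can be compared only per length, for which the deposited FPKM (fragments scaled to gene length and library total) were used. The most abundant member in every group was Ctsd, which averaged 1215 ± 104 FPKM in KO_Opti, 1253 ± 45.5 in KO_Norm, 1758 ± 94.2 in WT_Opti and 908 ± 91.0 in WT_Norm (SD, n = 3 each). Psap followed with 575 ± 70.7, 676 ± 25.0, 826 ± 25.2 and 439.8 ± 33.7 FPKM in the same groups. Gla was the least abundant of the 15 hydrolases and cofactors in every group, at 7.74 ± 0.573 FPKM in KO_Opti, 10.0 ± 1.89 in KO_Norm, 6.91 ± 0.494 in WT_Opti and 2.87 ± 0.798 in WT_Norm.

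Among the 13 subunit genes of V0 and V1, the range from lowest to highest was 20.5-fold in KO_Opti, 16.5-fold in KO_Norm, 12.8-fold in WT_Opti and 10.9-fold in WT_Norm. Atp6v1h, the H subunit that holds ATP hydrolysis in check when the sectors are apart, was lowest in all 4 groups, with means between 10.2 and 12.7 FPKM in KO_Opti, KO_Norm and WT_Opti and 5.67 FPKM in WT_Norm. Atp6v1g1 was highest in the first 3 of these groups, at 209.6 ± 53.7, 208 ± 45.3 and 154 ± 17.6 FPKM. In WT_Norm it averaged 42.4 ± 5.76 FPKM, below Atp6v0d1 with 62.0 ± 7.66 FPKM, with no overlap of their libraries. These are descriptions of RNA levels with no test.

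**Figure D5:**
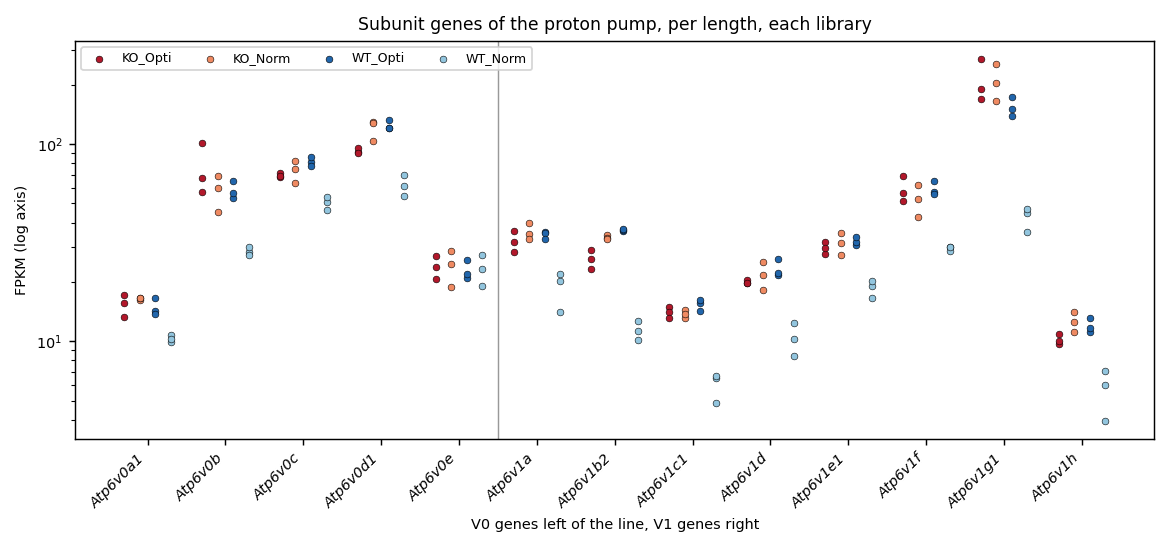
FPKM of the 13 subunit genes of the pump in each of the 12 libraries (points, coloured by group) on a log axis. WT_Norm points lie below the other groups for all genes except Atp6v0e, and Atp6v1g1 is at the top outside WT_Norm.

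Several pump subunits have tissue-restricted isoforms that are no members of the set. Of 10 listed, 7 were tested, and in WT_Opti against WT_Norm 2 were higher, 2 lower and 3 not called. Atp6v0d2, the d subunit isoform of osteoclasts and macrophages, had 2.59, 2.77 and 2.98 CPM in KO_Opti, 8.16, 10.2 and 7.40 in KO_Norm, 32.2, 42.8 and 42.0 in WT_Opti and 1.17, 2.60 and 1.17 in WT_Norm. It was far higher in WT_Opti than in every other group, with 4.55 ± 0.29 against WT_Norm (adjusted p = 1.48e-07) and -3.81 ± 0.28 in KO_Opti against WT_Opti (adjusted p = 1.01e-06). Atp6v0e2 also rose in WT_Opti (1.87 ± 0.38, adjusted p = 0.00166).

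Atp6v0a2, the a subunit isoform of endosomes and Golgi, fell in WT_Opti against WT_Norm (-0.43 ± 0.10, adjusted p = 0.00489). Tcirg1, the a subunit isoform of osteoclasts, gave 0.38 ± 0.16 there (adjusted p = 0.0807). Atp6v1c2 was at most 1.03 CPM in any library and was called lower in WT_Opti, at a level where single counts matter. Atp6v0a4 and Atp6v1g2 did not pass in that comparison.

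Outside the members, other lysosomal hydrolases were divided. Of 40 listed, 17 were higher, 10 lower and 13 not called in WT_Opti against WT_Norm, with a median log2 fold change of 0.12, and over both media 3 were higher, 25 lower and 12 not called in knockout. Dpp7, which releases dipeptides from the amino end of peptides, and Scpep1, a serine carboxypeptidase, rose by 1.64 ± 0.17 (adjusted p = 8.72e-06) and 1.47 ± 0.10 (adjusted p = 2.65e-07) in WT_Opti. Ids, which removes sulfate from heparan and dermatan sulfate, was lower there (-1.22 ± 0.12, adjusted p = 6.86e-06). Ctsh and Ctsf, cysteine cathepsins, were lower in knockout over both media (-1.25 ± 0.09, adjusted p = 4.52e-07, and -0.90 ± 0.08, adjusted p = 3.92e-06).

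Membrane, sorting and autophagy genes had more higher than lower calls in WT_Opti against WT_Norm. Of 23 tested membrane and transport genes, 14 were higher and 2 lower, led by Tmem192 (1.59 ± 0.14), the cystine exporter Ctns (1.52 ± 0.10) and the lysolipid transporter Spns1 (1.33 ± 0.09). Of 12 genes that sort enzymes to lysosomes, 7 were higher and 2 lower, and of 20 autophagy genes 14 were higher and 1 lower. The autophagy receptor Sqstm1 had 833, 1074 and 913 CPM in KO_Opti, 1442, 1541 and 1499.7 in KO_Norm, 1498, 1554 and 1629 in WT_Opti and 315, 358 and 325 in WT_Norm, the largest change on its list in wild type cells (2.23 ± 0.11, adjusted p = 2.1e-08). Among 10 tested genes of pump assembly and regulation, 3 were higher and 3 lower, with a median log2 fold change of -0.07.

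Of the 4 MiT/TFE genes, 3 were higher in WT_Opti than in WT_Norm: Mitf (1.17 ± 0.16, adjusted p = 8.91e-05), Tfeb (0.59 ± 0.12, adjusted p = 0.002) and Tfe3 (0.48 ± 0.08, adjusted p = 0.000271). Mitf had 5.02, 7.05 and 5.77 CPM in KO_Opti, 8.94, 7.92 and 7.17 in KO_Norm, 11.5, 12.6 and 11.8 in WT_Opti and 4.91, 6.19 and 4.85 in WT_Norm. It was highest in WT_Opti, and was lower in KO_Opti than in WT_Opti (-1.01 ± 0.16, adjusted p = 0.000498). Tfec stayed under 1 CPM in every library. These are RNA levels, and the activity of MiT/TFE proteins depends largely on where in the cell they sit, which was not measured.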

How the data were processed

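Poly(A) RNA of 12 libraries was sequenced as stranded paired reads. Per the labels and methods, the authors aligned reads with HISAT2, assembled transcripts with StringTie and gffcompare, and deposited raw counts per gene with FPKM values, which they scaled by transcript length and library total. For versions, genome build and use of strand in counting, the entry is: not given in the sources used here. GENCODE M21 (GRCm38) held 99.71% of the gene identifiers, and 99.87% of those overlapped in position.

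The deposited counts were fitted with edgeR 4.0.16 in R 4.3.3 (quasi-likelihood test, 4 group means, TMM factors, default filter on low counts, Benjamini-Hochberg adjustment over all 19118 genes tested, threshold 0.05, two-sided). The biological coefficient of variation was 25.4%. Standard errors were derived from the F statistic. The deposited FPKM values served for levels between genes and, with limma 3.58.1 on log2(FPKM + 1) and log2(FPKM + 0.1), as alternatives. Other alternatives were DESeq2 1.42.0, its size factors, no filter, fits of 2 groups only, a replicate block, Y-linked expression as a covariate, the knockout groups by the treatment entry, and each library left out. The fit was tested on simulated data.

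Values of every library are given for up to 3 members per role with the smallest adjusted p in WT_Opti against WT_Norm or in knockout against wild type, and for members called against most of their role. From each other list, up to 3 called genes with the largest change and a mean of at least 5 CPM were eligible, plus all other pump isoforms. Members and lists were chosen with earlier results of these data known. Depth was 51546504 to 71448484 counts per library.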

Additional observations from a re-analysis of the deposited data

Results flagged for a closer look

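The effect of Opti medium differed between knockout and wild type cells for 31 of the 34 members by edgeR's test of the difference itself, all lower, where 17.0% of all genes were called lower. The same test called 13 of 18 macrophage markers lower, with a median of -1.83, beside a median of -1.08 over the members, and the part of these markers in the members' differences was not tested. That test also called 3 of the 4 Y-linked genes lower, with a median of -0.76. With Y-linked expression as a covariate, 28 members and 1749 of the 19118 genes were called lower, against 31 and 3257 without it. Values are the log2 difference, the change from Norm to Opti in knockout cells minus that in wild type cells, and all 31 were below 0. In the V0 sector they were Atp6v0a1 -0.52, Atp6v0c -0.67 and Atp6v0d1 -1.30. In the V1 sector they were Atp6v1a -0.98, Atp6v1b2 -1.97, Atp6v1c1 -1.24, Atp6v1d -1.20, Atp6v1e1 -0.78, Atp6v1f -0.74, Atp6v1g1 -1.77 and Atp6v1h -1.32. For the accessory subunits they were Atp6ap1 -0.83 and Atp6ap2 -1.77. For the membrane genes they were Lamp1 -1.38, Lamp2 -0.89, Scarb2 -1.0 and Mcoln1 -0.92. For the cathepsins and peptidases they were Ctsa -0.92, Ctsb -1.28, Ctsd -0.91, Ctsl -1.46, Ctsz -1.08 and Tpp1 -1.08. For the glycosidases they were Hexa -1.18, Gla -1.57, Glb1 -0.75, Naglu -1.41, Neu1 -1.56 and Gaa -1.30, and for the genes of sphingolipid breakdown Psap -1.06 and Asah1 -1.24. Atp6v0b, Atp6v0e and Gusb were not called. These values assume that the titles of the knockout libraries give their medium.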

How the results depend on the processing

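In WT_Opti against WT_Norm, every alternative called 29 to 31 members higher, and both FPKM settings called 0 lower in place of 1. Under the Y-linked covariate, knockout against wild type over both media had 0 members higher and 0 lower, Atp6v1a turned to -0.13 and Atp6v1h to -0.03, KO_Norm against WT_Norm had 3 higher and 0 lower, and KO_Opti against KO_Norm had 0 higher and 8 lower. Under the treatment entry, KO_Norm against WT_Norm had 4 lower, KO_Opti against WT_Opti 1 higher and 7 lower with Glb1 at 0.05, and the interaction 3 higher and 19 lower. That reading turned KO_Opti against KO_Norm to 16 higher and 1 lower, its median to 0.291, and Glb1, Gusb, Ctsz, Ctsb, Naglu and Mcoln1 to 0.86, 0.86, 0.80, 0.62, 0.52 and -0.33, by construction. The FPKM settings called 0 members lower in KO_Norm against WT_Norm and, in KO_Opti against KO_Norm, 7 lower with a pseudocount of 1 and 6 with 0.1. They shifted the all-gene median in WT_Opti against WT_Norm by 0.1 and 0.2, and the share of higher calls there was 70.1% and 69.66%, against 50.87%. In KO_Opti against KO_Norm that share was 70.98% and 69.78%, against 43.25%. The cause of these shifts was not tested.

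With one library left out, counts higher were 29 to 31 in WT_Opti against WT_Norm, 14 to 17 in knockout against wild type and 27 to 29 in KO_Norm against WT_Norm, and counts lower were 16 to 21 in KO_Opti against WT_Opti and 30 to 32 for the interaction. KO_Norm against WT_Norm had 0 to 1 lower, and KO_Opti against KO_Norm 0 to 1 higher and 10 to 17 lower. Calls over all genes moved in these fits as well. Higher calls were 3138 to 4015 in WT_Opti against WT_Norm and 2931 to 3724 in KO_Norm against WT_Norm. In knockout against wild type they were 2835 to 3345. Lower calls were 2052 to 3190 in KO_Opti against WT_Opti, 1244 to 2459 in KO_Opti against KO_Norm and 2484 to 3258 for the interaction. In KO_Opti against KO_Norm, no filter, fits of 2 groups only and the replicate block each called 0 members higher. Replicate numbers did not pair libraries (18 same-numbered pairs, r from -0.244 to 0.283), and the replicate block called 29 members higher in WT_Opti against WT_Norm. In knockout against wild type, the calls of Atp6v0a1 and Gaa were lost without any one of 9 and 6 libraries.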
